A study of Homo sapiens with 6 samples.

Results

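The genes described here encode the translation initiation factors (eIFs), with the proteins that inhibit them, and the aminoacyl-tRNA synthetases, in MDA-MB-231 cells depleted of Sam68. They were chosen by symbol from the deposited table: every locus with a symbol that starts with EIF and a digit, other than the eIF2 kinases, every synthetase symbol of the form AARS or AARS2, and EPRS. This gave 90 of the 74852 loci listed, of which 34 are synthetases and 56 carry the symbol of an initiation factor or inhibitor. The 56 include 5 loci that encode no such protein, antisense RNAs and the pseudogene EIF3IP1. Of these 5, 2 were tested, EIF1B-AS1 and EIF3J-AS1. Of the 90, 86 had a mean normalized read count of at least 10 and were tested among 18849 loci. EIF4E1B did not reach that mean, and EIF3IP1, EIF1AX-AS1 and EIF2B5-AS1 were listed at 0 in every library. EIF1AY was tested and counted, and its level is not given.

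MDA-MB-231 is an established human line of triple-negative breast cancer. In the control group (si-CTRL, 3 libraries) the cells received non-targeting siRNAs, and in the silenced group (si-SAM68, 3 libraries) siRNAs against SAM68. Cells of both groups were transfected in 2 rounds with a lipid reagent and, by the labels, collected 24 h after the last one, whereas the methods of the study give another time and do not mention a second round. The pools of 4 siRNAs stand for a transient depletion in 1 line, and the labels do not say whether replicates were separate cultures, so that p-values measure the spread between these libraries only. Of the markers of the line, CD44 had at least 43246 normalized reads in every library, ESR1 and the epithelial gene CDH1 had at most 15.2 and 4.60, and PGR was listed at 0. ERBB2, which the name triple-negative refers to at the protein level, was not near 0 (2413 to 3447).

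Initiation begins when eIF2 brings the initiator tRNA to the small ribosomal subunit, with eIF1, eIF1A, eIF3 and eIF5. The mRNA is recruited through its cap by eIF4F, which joins the cap-binding protein eIF4E, the scaffold eIF4G and the helicase eIF4A. The 4E-BPs hold eIF4E away from eIF4G until the kinase mTORC1 phosphorylates them. The synthetases load each tRNA with its amino acid, with separate sets of enzymes for the cytosol and for mitochondria, and several genes of the cytosolic set are known targets of ATF4, the transcription factor of the amino acid response. Much of this control acts on proteins, by phosphorylation, and is not seen in RNA levels.

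The siRNAs of the SAM68 pool are shown because they define the depletion. Each is printed as its sense strand, 5′ to 3′, and the capitals mark the 7 bases that pair with positions 2 to 8 of the guide strand, its seed.
siSAM68_1: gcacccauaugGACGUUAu
siSAM68_2: gaaagagcgagUGCUGAUa
siSAM68_3: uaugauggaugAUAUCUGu
siSAM68_4: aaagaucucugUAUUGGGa
In the GENCODE transcripts all 4 lie in the coding part of KHDRBS1, the gene for Sam68. The letters of at least 1 of the 4 seeds were found in the longest 3′UTR of 21 of 84 members (25%) and of 26.2% of all genes with a 3′UTR. Of the called members described below, EIF4EBP2, which was higher, held such letters, and EIF4G2, EIF4EBP1, EARS2 and PARS2 held none. The 3′UTR of EIF4EBP3 held none either, but that of ANKHD1, which is joined to it in the called locus, was not searched. For the si-CTRL pool the letters of at least 1 seed were found in the 3′UTR of 35 of 84 members (41.7%) and of 50% of all genes, and EIF4EBP2 held those of 3 control siRNAs, EARS2 those of 2 and PARS2 those of 1. Such a match is a description of the sequence and not a measured site.

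The reads recovered from the table numbered between 52625492 and 82568487 per library. KHDRBS1 had normalized read counts of 15660, 14483 and 14737 in si-CTRL and 583, 602 and 670.2 in si-SAM68 cells, or 4.13% of the si-CTRL mean (exact permutation test, two-sided, p = 0.1, which is as low as 3 against 3 can go). Reads of the rRNA precursor made up 15.1% of si-SAM68 replicate 2 and at most 3.17% of any other library. Among the members, si-CTRL replicate 1 stood apart: in 53 of the 86 tested (61.6%) its value was above or below all 5 other libraries, as it was in 55.8% of all loci. In bulk RNA, fewer cells that express a gene and less RNA per cell cannot be told apart.

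By an adjusted p-value under 0.05 (limma with Benjamini-Hochberg adjustment over all loci tested), 7 of the 86 members were called, or 8.14%, against 10.7% of all loci and 12.6% of the 7991 loci that averaged 1000 or more, a limit set after the values were seen. Of these, 4 were higher (EIF4EBP2, PARS2 and the locus of EIF4EBP3 among them), where 4.47% of all loci were, and 3 were lower (EARS2, EIF4EBP1 and EIF4G2), where 6.23% were. The median log2 fold change was -0.04 over the members and 0.01 over all loci. By the thresholds of the study (unadjusted p ≤0.05 and fold change ≥1.5), applied to the limma fit, 0 members were called against 7.67% of all loci. The study's own analysis was another one, and its count of regulated genes is not this share. From limma 21 members had an unadjusted p under 0.05, as did 27% of all loci. edgeR and DESeq2 on the recovered reads also gave 0 by these thresholds. The members had more reads than most genes, and among the loci that averaged 1000 or more 2.83% passed both thresholds. The 95% interval of the fold change lay inside 1.5-fold in either direction for 81 of the 86 members, against 56.2% of all loci. The groups did not overlap in 18 members that were higher and 17 that were lower in si-SAM68 cells, against 16.6% and 17.3% of all loci.

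**Figure D1:**
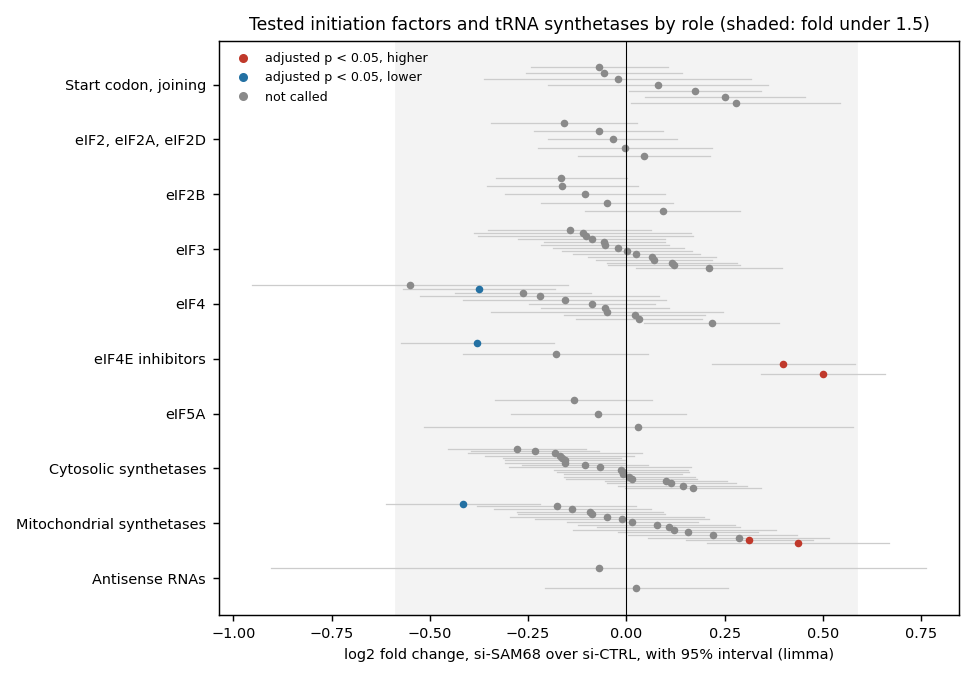
The log2 fold change of each tested member except EIF1AY (si-SAM68 over si-CTRL, points) with its 95% interval from limma (lines), in rows by role. Points called higher are red, points called lower are blue and the others are grey. The shaded band marks a fold change under 1.5, and every point lies inside it, from -0.55 for EIF4E3 to 0.50 for EIF4EBP2.

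The inhibitors of eIF4E held the largest difference with a call. EIF4EBP2, which encodes 4E-BP2 (locus GSHG0003426 of the table, chromosome 10 of hg19, 72163861 to 72188374), had normalized read counts of 24354, 23065 and 22562 in si-CTRL and 31811, 33188 and 33964 in si-SAM68 cells. Every si-SAM68 library lay above every si-CTRL library, and the spread within each group was small beside the gap. It rose by 1.41-fold, or 0.50 on the log2 scale, with a standard error of 0.071 (limma, adjusted p = 0.00297). It was the only member called with each library left out in turn (adjusted p between 0.000333 and 0.026 from limma).

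EIF4EBP1, the gene of its paralog 4E-BP1 (chromosome 8, 37888020 to 37917882), moved the other way. It had 7398, 6175 and 7076 normalized reads in si-CTRL and 5570.0, 5195 and 5077 in si-SAM68 cells. The groups did not overlap, although si-CTRL replicate 2 came near the highest si-SAM68 library. Its level was 1.30-fold lower, a log2 fold change of -0.38 with a standard error of 0.087 (limma, adjusted p = 0.0238). This call was lost without si-CTRL replicate 3 and when any si-SAM68 library was left out, with an adjusted p of up to 0.109 from limma. As a description chosen after the values were seen, the ratio of EIF4EBP2 to EIF4EBP1 normalized reads was 3.29, 3.73 and 3.19 in the si-CTRL and 5.71, 6.39 and 6.69 in the si-SAM68 libraries. The ratio compares read counts of genes that differ in length, so that its change between libraries and not its level can be read.

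The third gene of the family, EIF4EBP3, is not resolved in the table. Its locus (chromosome 5, 139781399 to 139929163) joins ANKHD1, the readthrough transcript ANKHD1-EIF4EBP3 and EIF4EBP3, and its reads are those of all of them together. The locus had 6753, 6245 and 6040.5 normalized reads in si-CTRL and 7720, 8735 and 8663 in si-SAM68 cells, with no overlap (log2 fold change 0.40, standard error 0.081, adjusted p = 0.0151 from limma). Its call was lost without si-CTRL replicate 3, si-SAM68 replicate 2 or si-SAM68 replicate 3. EIF4ENIF1, which encodes the eIF4E transporter, did not pass the test (log2 fold change -0.18, 95% interval -0.41 to 0.05).

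**Figure D2:**
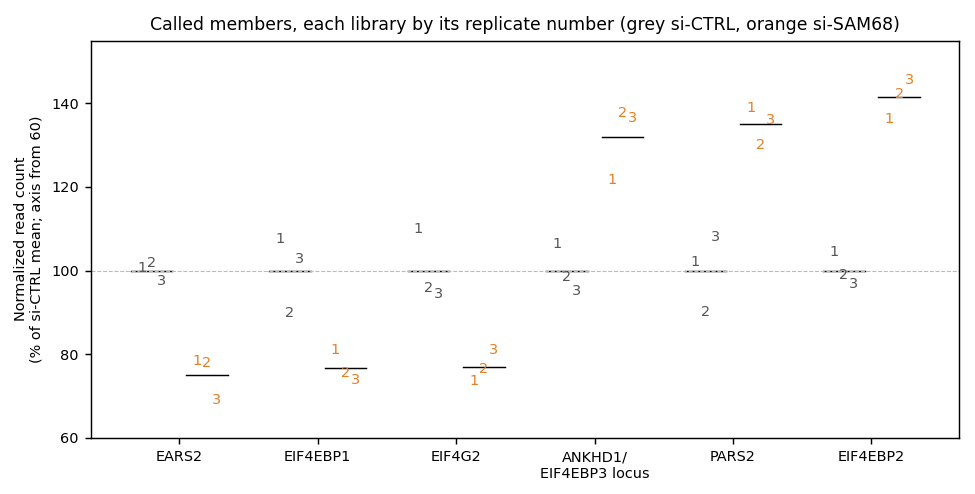
Normalized read count of 6 called members as a percentage of the si-CTRL mean, on an axis that starts at 60%. Each library is drawn as its replicate number, grey for si-CTRL and orange for si-SAM68, and the short lines are group means. The orange numbers of EARS2, EIF4EBP1 and EIF4G2 lie below all grey numbers of the same gene, and those of the other 3 lie above.

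Among the factors that bind the cap and unwind the mRNA, 1 of 11 tested was called (9.09%, against 10.7% of all loci). This was EIF4G2 (chromosome 11, 10818593 to 10830582), which encodes the eIF4G-like protein DAP5, a scaffold that lacks the eIF4E-binding part of eIF4G. Its normalized read counts were 115909, 100912 and 99435 in si-CTRL and 77504, 80681 and 85269.9 in si-SAM68 cells. All si-SAM68 libraries were lower, by 0.38 on the log2 scale (log2 fold change -0.38, standard error 0.086, adjusted p = 0.0242 from limma). With the replicate number as a block the adjusted p was 0.0508, so that the call was lost by a narrow margin. The call was also lost when any si-SAM68 library was left out. A tested snoRNA locus, SNORD97, lies within the same interval, and whether it shares reads with EIF4G2 was not tested.

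The genes of eIF4F itself did not pass in the main limma fit. EIF4E, the cap-binding protein, had 6083, 5403 and 5916 normalized reads in si-CTRL and 4743, 4717 and 5026 in si-SAM68 cells. Its groups did not overlap, and the log2 fold change was -0.26 (95% interval -0.44 to -0.09, adjusted p = 0.0571 from limma, 0.0633 from edgeR and 0.0237 from DESeq2). In 3 limma alternatives EIF4E was called: a minimum mean of 50 (adjusted p = 0.049), quantile normalization (0.0457) and without si-CTRL replicate 1 (0.0428). EIF4E3, a divergent member of the family with few reads, had 97.5, 77.5 and 81.8 against 58.4, 57.0 and 58.1 (log2 fold change -0.55, adjusted p = 0.0808 from limma). It had the largest fold change of all members, 1.46-fold lower, and its interval was wide (-0.95 to -0.15). EIF4E2, also known as 4EHP, had a log2 fold change of -0.05 with an interval of -0.22 to 0.11.

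EIF4G1, the main scaffold, was set apart by a single library. Its normalized read count was 82613 in si-CTRL replicate 1, and 61683 and 60599.8 in the other si-CTRL libraries, against 59829, 62771 and 59353 in si-SAM68 cells. The log2 fold change was -0.16 with all libraries and -0.01 without si-CTRL replicate 1, and neither passed the test. EIF4G3 showed the same pattern, with 6292 in si-CTRL replicate 1 and values from 3942 to 4521 in all 5 other libraries. For the helicases, the locus of EIF4A1, which joins CD68, SENP3 and snoRNAs, had a log2 fold change of -0.09 (-0.25 to 0.07). The locus of EIF4A2, which joins a miRNA and snoRNAs, had 0.22 (0.04 to 0.39, adjusted p = 0.104 from limma), and it was called only without si-CTRL replicate 1 (adjusted p = 0.0444). EIF4A3, a component of the exon junction complex in spite of its name, had -0.05 (-0.34 to 0.24) with all libraries, and without si-CTRL replicate 1 its log2 fold change was -0.23 and it was called (adjusted p = 0.0311 from limma).

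The regulators of cap-dependent initiation, a list of 18 genes outside the members, gave a further 3 calls (16.7%, against 10.7% of all loci). RPTOR, the subunit of mTORC1 that presents the 4E-BPs to the kinase, had 4267, 4085 and 3969 normalized reads in si-CTRL and 2063, 2079 and 1824 in si-SAM68 cells. It was 2.07-fold lower (log2 fold change -1.05, standard error 0.083, adjusted p = 0.000186 from limma), and like PDCD4 below it was called with each library left out. MTOR, the kinase, had a log2 fold change of -0.14 and was not called. PDCD4, an inhibitor of eIF4A, rose from 4776, 4832 and 4574 to 6302, 6094 and 6271 at a locus that it shares with a miRNA (log2 fold change 0.40, adjusted p = 0.0079 from limma). MKNK2, a kinase of eIF4E, rose from 2427, 2826 and 2598 to 3718, 3345 and 3194 (log2 fold change 0.39, adjusted p = 0.0265 from limma), a call that was lost without si-CTRL replicate 3 or any 1 of the si-SAM68 libraries. The median log2 fold change of the 18 was -0.01.

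**Figure D3:**
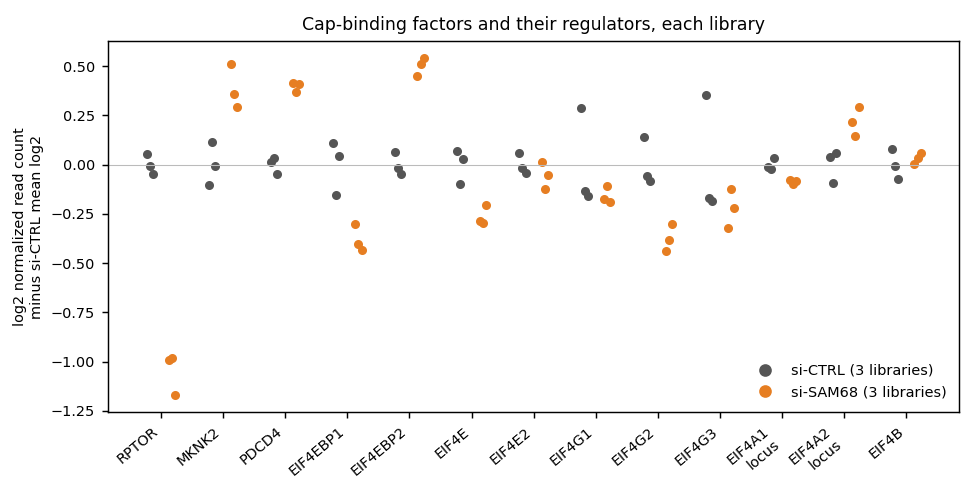
Cap-binding factors and their regulators, with the log2 normalized read count of each library minus the mean log2 value of the si-CTRL libraries. Grey points are si-CTRL and orange points si-SAM68 libraries, 3 each. RPTOR lies lowest, EIF4EBP1 and EIF4EBP2 move in opposite directions, and a single si-CTRL point stands high for EIF4G1 and EIF4G3.

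The factors that deliver the initiator tRNA and select the start codon gave no call. For the subunits of eIF2, the log2 fold change was 0.04 for EIF2S1 (95% interval -0.12 to 0.21), -0.16 for EIF2S2 (-0.34 to 0.03) and -0.07 for EIF2S3 (-0.24 to 0.09). The 5 subunits of eIF2B, which recharges eIF2 with GTP, had a median of -0.11, between -0.17 and 0.09. The locus of EIF2B5 (log2 fold change -0.05, interval -0.22 to 0.12) overlaps 16 other tested loci, EIF4G1 among them, and whether it shares their reads was not tested. Of the 8 genes of start codon selection and subunit joining, EIF6, which keeps ribosomal subunits apart, had the largest value. It had 13756, 19134 and 17999.8 normalized reads in si-CTRL and 21984, 19977 and 19240.3 in si-SAM68 cells, with si-CTRL replicate 1 far below the rest (log2 fold change 0.28, adjusted p = 0.168 from limma, and 0.13 without that library).

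The eIF3 complex is the largest of the initiation factors. Its 14 tested loci had a median log2 fold change of -0.01 and lay between -0.14 for EIF3J and 0.21 for EIF3L, with 7 on either side of 0, 0 called and 1 with an unadjusted p under 0.05 from limma. edgeR and DESeq2 called none of them either. The groups did not overlap in 4 of the 14, EIF3E, EIF3F, EIF3H and EIF3L, all higher in si-SAM68 cells, and in 0 that were lower, against 16.6% and 17.3% of all loci. EIF3A, the largest subunit, had -0.09 (-0.28 to 0.10). The paralogs EIF3C and EIF3CL are near-identical and may share reads between their loci, and both loci were below 0 (-0.06 and -0.11) with intervals that held 0. EIF5A, a factor of elongation and termination, had -0.07 (-0.29 to 0.15) and its paralog EIF5A2 -0.13 (-0.33 to 0.07).

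Of the synthetases, the 18 cytosolic enzymes gave 0 calls in the main limma fit and by edgeR, and 5 had an unadjusted p under 0.05 from limma. DESeq2 called GARS and SARS, both lower. GARS, the glycyl-tRNA synthetase of both cytosol and mitochondria, had 21181, 19391 and 18193 normalized reads in si-CTRL and 15719.8, 15876 and 16765 in si-SAM68 cells. The groups did not overlap (log2 fold change -0.28, interval -0.45 to -0.10), and the adjusted p of 0.0506 from limma (0.0176 from DESeq2) fell just outside the threshold. With a minimum mean of 50, with quantile normalization and without si-CTRL replicate 1 (adjusted p = 0.0346) limma did call GARS. Among the 18, 12 values were below 0 and 6 above, with a median of -0.04, and the groups did not overlap in 7 lower and 4 higher genes of the 18, where 17.3% and 16.6% of all loci did not. EPRS, the fused glutamyl-prolyl enzyme and a component of the multisynthetase complex, had a log2 fold change of 0.11 (-0.05 to 0.28). MARS, at a locus with a miRNA, had -0.10 (-0.26 to 0.06) and QARS, likewise, 0.14 (-0.02 to 0.31). The interval of MARS also overlaps the tested loci of ARHGAP9 and of DDIT3, a gene of the ATF4 list below, and whether they share reads was not tested. WARS, which interferon induces, had -0.18 (-0.40 to 0.04). All 18 intervals lay inside 1.5-fold in either direction.

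The cytosolic phenylalanyl enzyme has subunits named FARSA and FARSB, which the choice by symbol left out. FARSB had 9141, 9238 and 9696 normalized reads in si-CTRL and 6778, 7066 and 7688 in si-SAM68 cells and was called (log2 fold change -0.38, adjusted p = 0.0133 from limma). FARSA had -0.36 and an adjusted p of 0.0568 from limma, or 0.04 with the replicate number as a block. FARSB was the 1 gene called in a list of 10 further synthetase genes and partners (10%, against 10.7% of all loci), among which the median was -0.18. The call of FARSB was lost without si-CTRL replicate 3, si-SAM68 replicate 1 or si-SAM68 replicate 2, and without si-CTRL replicate 1 the list had 5 calls.

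The 16 mitochondrial synthetases held 3 of the 7 calls, 2 higher and 1 lower (18.8%, against 10.7% of all loci). EARS2, the glutamyl enzyme (chromosome 16, 23533335 to 23568696), had 1444, 1459.6 and 1397 normalized reads in si-CTRL and 1124, 1116 and 989 in si-SAM68 cells. It was 1.33-fold lower, with no overlap (log2 fold change -0.42, standard error 0.088, adjusted p = 0.0176 from limma). PARS2, the prolyl enzyme (chromosome 1, 55222573 to 55230226), had 527, 465 and 558 against 717, 672 and 703, and it rose by 1.35-fold (log2 fold change 0.44, standard error 0.104, adjusted p = 0.0276 from limma). The call of EARS2 was lost without si-CTRL replicate 2, si-SAM68 replicate 2 or si-SAM68 replicate 3. That of PARS2 was lost without si-CTRL replicate 2 and when any si-SAM68 library was left out.

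IARS2, the isoleucyl enzyme, had 12209.6, 15599 and 15770.5 against 17003, 17369 and 18405 (log2 fold change 0.29, interval 0.06 to 0.51, adjusted p = 0.108 from limma). Its si-CTRL replicate 1 was the lowest of all libraries, and without it the log2 fold change was 0.16. The median of the 16 was 0.05.

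Genes of the amino acid response carry an element, TGATGNAA, that ATF4 binds with a C/EBP partner. It was searched on both strands in the 300 bases around the annotated start (RefSeq, GRCh38.p14), which were found for 73 of 89 members. The letters were present in 6 of 14 promoters of cytosolic synthetases (42.9%), in 1 of 13 of mitochondrial ones (7.69%) and in 0 promoters of the initiation factors, against 3.62% of all promoters. The 6 windows are shown along the gene's strand, with the element in capitals, which reads as its reverse complement except in NARS.
AARS: tctcgcagTTGCATCAgccaagtt
CARS: ggcggcggTTGCATCAgattctag
IARS: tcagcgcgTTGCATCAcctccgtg
MARS: ggttccggTTGCATCAgcgaggga
NARS: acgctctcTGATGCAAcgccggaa
TARS: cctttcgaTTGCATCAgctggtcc
The windows lie at chr16:70289678-70289701, chr11:3057410-3057433, chr9:92293695-92293718, chr12:57488056-57488079, chr18:57621807-57621830 and chr5:33440959-33440982, in this order, with AARS, CARS, IARS and NARS on the minus strand. The 6 genes had log2 fold changes between -0.17 for TARS and 0.17 for IARS, with a median of -0.06, and the 8 genes whose promoter did not hold the letters had a median of -0.09. None of the 14 was called in the main limma fit. IARS had 55444, 62077 and 58028 normalized reads in si-CTRL and 62832, 66311 and 68220.2 in si-SAM68 cells, and the groups did not overlap by a narrow margin.

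Several other genes of the amino acid response were lower, whereas ATF4 RNA was not called. ATF4 had a log2 fold change of 0.01 (95% interval -0.15 to 0.18). In a list of 15 genes, ATF4 and its known targets, 6 were called lower and 0 higher (40%, against 10.7% of all loci), with a median of -0.24. Like the other lists, it was chosen with earlier results of these data known, so that this share is a description only. ASNS, asparagine synthetase, fell from 5980.4, 6525 and 6137 to 4711, 4961 and 5178 (log2 fold change -0.33, adjusted p = 0.0238 from limma). TRIB3, a pseudokinase induced by ATF4, fell from 879, 918 and 888 to 667, 677 and 611 (log2 fold change -0.46, adjusted p = 0.0136 from limma). PHGDH, the first enzyme of serine synthesis, fell by 0.38 on the log2 scale (adjusted p = 0.017 from limma). VLDLR, a lipoprotein receptor, had the largest decrease, with a log2 fold change of -0.78 (adjusted p = 0.00356 from limma). The ATF4 partners CEBPB and CEBPG were lower, by log2 fold changes of -0.61 and -0.45 (adjusted p = 0.0439 and 0.0299 from limma). The list gave 7 calls without si-CTRL replicate 1, 3 without si-CTRL replicate 2 or 3, 4, 2 and 1 without si-SAM68 replicates 1, 2 and 3, and VLDLR was called in every case. Values above 0 were seen for DDIT4 (0.44) and SLC7A11 (0.31), which were not called with all libraries, but were among those calls without si-CTRL replicate 2 and si-SAM68 replicate 1, respectively. Whether these genes and the synthetases differ from each other was not tested.

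**Figure D4:**
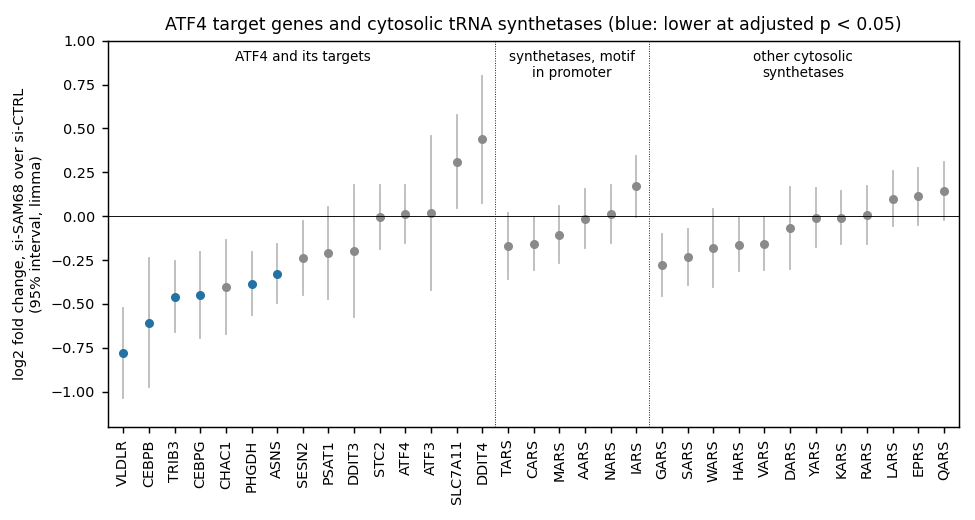
Log2 fold change (si-SAM68 over si-CTRL) with its 95% interval from limma for ATF4 and its targets, for cytosolic synthetases whose promoter held the letters TGATGNAA, and for the other cytosolic synthetases. Blue points were called lower and grey points were not called. The 6 blue points are all in the left panel.

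The kinases and phosphatase subunits that act on eIF2 gave 1 call among 6 genes (16.7%, against 10.7% of all loci). PPP1R15A, the stress-induced subunit of the phosphatase that reactivates eIF2, had 11798, 7549.8 and 8909.6 normalized reads in si-CTRL and 5843, 6862 and 6623 in si-SAM68 cells. It was lower with a log2 fold change of -0.53 (adjusted p = 0.0444 from limma, and 0.0724 with the replicate number as a block), and the call was lost without si-CTRL replicate 3 or any 1 of the si-SAM68 libraries. The eIF2 kinase genes had log2 fold changes between -0.11 for EIF2AK2 and 0.19 for EIF2AK1, and none was called.

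The number of called members moved with the libraries used. It was 12 without si-CTRL replicate 1, 4 without either of the other si-CTRL libraries, 3 when si-SAM68 replicate 1 was left out and 1 when replicate 2 or 3 of that group was. The share of all loci called moved with it, from 15.1% without si-CTRL replicate 1 to 3.32% without si-SAM68 replicate 3, and in every case it was above the share of members. All 7 calls were also made without si-CTRL replicate 1, and EIF4EBP2 was the 1 member called without si-SAM68 replicate 2 or 3. The fold changes themselves were steadier: that of EARS2 stayed between -0.45 and -0.36, that of EIF4EBP1 between -0.46 and -0.33, that of EIF4G2 between -0.42 and -0.30 and that of PARS2 between 0.36 and 0.49.

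**Figure D5:**
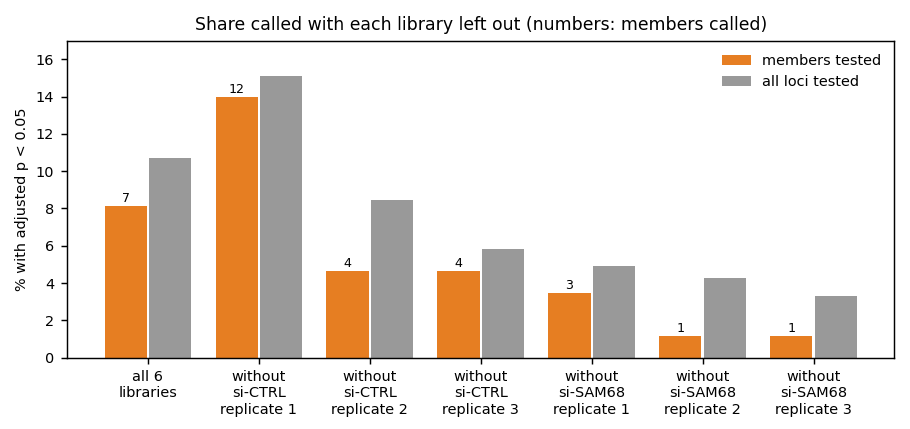
Share of the 86 tested members (orange) and of all 18849 loci (grey) with an adjusted p-value under 0.05 from limma, with all 6 libraries and with each library left out. Numbers above the orange bars count the members called, which run from 12 without si-CTRL replicate 1 to 1 without si-SAM68 replicate 2 or 3.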

How the data were processed

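RNA-seq of poly(A)+ RNA from 6 libraries was analysed. The authors deposited a signal for each locus, reads counted on FAST DB loci (hg19) and scaled between libraries with DESeq2 size factors. The submitters' processing notes name STAR 2.4.0, SAMtools, Picard, FastQC and DESeq2. The counting program and the use of strand are not given in the sources used here, so overlapping loci (46 of 85 members overlap another tested locus) and paralogs can share reads. In each library all values (100%) fell on multiples of 1 step, within 0.01, and were taken as reads.

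limma 3.58.1 in R 4.3.3 (eBayes with a trend) was run on log2(normalized read count + 1) over the 18849 loci that averaged 10 or more, without a replicate term. This scale understates the change of genes with few reads. Called means an adjusted p (Benjamini-Hochberg, all loci) under 0.05. Alternatives were pseudocounts of 0.1 and 5, no filter, a minimum of 50, no trend, TMM factors, quantile normalization, the replicate block, each library left out, the fold rule of the study, edgeR 4.0.16 and DESeq2 1.42.0. On the recovered reads edgeR called 2026 loci and DESeq2 2789. The programs were tested on simulated counts.

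Same-numbered libraries deviated together (correlations 0.105, 0.231 and 0.125, against at most 0.007 for other pairs). The deviations are from the mean of each group of 3 libraries, so that positive values for same-numbered pairs by themselves lower the other pairs. The numbers may therefore pair the libraries, and the study names no paired design. The values given are still those of the fit without the pairing, and the paired fit is an alternative, printed where it changed a call. The members and lists were chosen with earlier results of these data known. Named are the called members (1 is not reported here), the 5 largest changes among the others, a fixed set of core factors and the called genes of the lists; further genes (EIF4ENIF1, EIF3C, EIF3CL, EIF3E, EIF3F, EIF3H, EIF3J, EIF3L, IARS, TARS, SARS, FARSA, MTOR, ATF4, DDIT4, SLC7A11, EIF2AK1, EIF2AK2, EEF1A1, EEF2) were named after their values were seen. Promoters and 3′UTRs come from RefSeq and GENCODE (GRCh38) and were used for sequence only.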

Additional observations from a re-analysis of the deposited data

How the results depend on the processing

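The number of called members was 7 and stayed within 1.5 times of that with both other pseudocounts, no filter, a minimum of 50, TMM factors, quantile normalization, the replicate block (6 members) and edgeR and DESeq2 (7 and 10). It was 2 without the trend and 0 by the fold rule of the study, and between 1 and 12 with a library left out. Without the trend only 1 of the 7 calls was kept, that of EIF4EBP2, and the other member called was EIF4E3. All 7 calls were also made by edgeR and by DESeq2. Over all loci the count was 2017, 899 without the trend, and between 625 and 2839 with a library left out. The replicate block gave 1697 loci and ended the calls of EIF4G2, PPP1R15A and GBP2 and no other call of a named gene, and it added a call of FARSA. Of the 720 comparisons of a named gene with an alternative, 621 kept direction and side of the threshold, 85 lost the call, 11 gained it and 3 changed direction, the last for genes near 0: EIF4A3 (between -0.23 and 0.05 with a library left out, 0.04605 and 0.03099 without si-CTRL replicates 2 and 3) and EIF5A (between -0.18 and 0.00145, the latter without si-CTRL replicate 2). The causes were not tested. Depth limits EIF4E1B, which was not tested, and EIF4E3, with under 100 reads and a standard error of 0.18.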

Other observations

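Later steps of translation, a list of 16 genes of which 15 were tested, gave 2 calls, both lower (13.3%, against 10.7% of all loci). EEF1A2, the tissue-restricted paralog of the elongation factor eEF1A, had normalized read counts of 10439.9, 10646 and 9297 in si-CTRL and 7828, 6302 and 6438 in si-SAM68 cells (log2 fold change -0.57, adjusted p = 0.00785 from limma). GFM2, which recycles mitochondrial ribosomes, had 12703, 12059 and 12517 against 10009, 9927 and 10106 (log2 fold change -0.31, adjusted p = 0.0185 from limma). EEF1A1 and EEF2 had log2 fold changes of 0.17 and -0.12 and were not called. The call of EEF1A2 was lost without si-SAM68 replicate 3, and that of GFM2 without si-CTRL replicate 3 or any 1 of the si-SAM68 libraries.

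Of 9 interferon response genes tested, set beside WARS and EIF2AK2, 2 were called (22.2%, against 10.7% of all loci). MX1 was lower (log2 fold change -0.70, adjusted p = 0.0147 from limma) and the locus of GBP2 and GBP7 was higher (log2 fold change 0.69, adjusted p = 0.0247 from limma, and 0.0505 with the replicate number as a block). The median of the 9 was 0.05. With si-CTRL replicate 1 left out 4 of them were called, and with si-SAM68 replicate 1 or 3 left out limma called 0.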
